A study of Saccharomyces cerevisiae with 42 samples.

Results

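Saccharomyces cerevisiae Ste12 is the DNA-binding activator on which the MAP kinase pathways of mating and of filamentous growth both end. Tec1 is its partner at filamentation genes, Kar4 its partner at genes of nuclear fusion, and Dig1 and Dig2 are inhibitors that hold it back until the kinases Fus3 and Kss1 act on them. Mcm1 is a MADS-box activator that works with Ste12 at mating genes and with other factors at cell cycle genes. The genes of these 6 factors, STE12 (YHR084W), TEC1 (YBR083W), KAR4 (YCL055W), DIG1 (YPL049C), DIG2 (YDR480W) and MCM1 (YMR043W), were taken by name from the 6278 open reading frames on the arrays. Each of the 6 had a value in all 18 columns of the level tables, as had 5443 of the open reading frames.

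The title of the series concerns the need for Hog1 in the nucleus during hyperosmotic stress. Hog1 is the kinase at the end of the osmotic stress (high-osmolarity glycerol) pathway, and it is known that osmotic stress reaches the mating pathway in cells without it, since both pathways use the kinase Ste11. The groups were HOG1-GFP (Hog1 with a green fluorescent protein tag), hog1del (HOG1 deleted) and HOG1-CCAAX (Hog1 ending in CCAAX, a prenylation signal that anchors proteins at membranes). Each strain was sampled at 0 min and after 60 min in 1 M sorbitol at 25 °C, in 3 biological replicates. No untagged wild type and no culture held for 60 min without sorbitol was analysed here, so time and handling cannot be told apart from the shock. The labels give no strain background, mating type or number of clones, and do not say whether biological replicates were separate cultures. P-values therefore measure the spread between these samples. In RNA from whole cultures, more RNA per cell and more cells making the RNA cannot be told apart.

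On each of 42 arrays the sample carried Cy3 and a pooled reference, the same throughout, carried Cy5. Levels are log2 ratios of sample over reference, which is the opposite sign to the deposited level tables. A level of 0 therefore equals that gene's level in the pool, and levels of different genes are not compared. The 18 columns held 5877 to 6143 open reading frames with column medians from −0.05 to 0.09. Replicate 1 stood apart. Its levels shared 5921 to 5926 probes of all kinds with the means of their arrays, against 7386 to 7799 in replicates 2 and 3. Across probes, the first technical array of replicate 1 correlated at 0.68 to 0.89 with the level table. The other arrays of replicate 1 reached 0.92 to 0.97, and those of replicates 2 and 3 reached 0.986 to 0.995. Each level combines the arrays it was compared with, 3 per group in replicate 1 and 2 in the others. The technical SD of the 6 genes was 0.20 to 0.33 in replicate 1 and 0.08 to 0.17 in the others. As the check of the deletion, the level of HOG1 in hog1del minus HOG1-GFP was −3.16 ± 0.21 at 0 min and −4.03 ± 0.37 at 60 min (limma adjusted p = 1.3e-07 and 3.8e-07). For a deleted gene such a ratio is only a bound.

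Before the shock none of the 6 genes passed the test between strains. At 0 min limma called 0 of the 6 in any of the 3 strain comparisons, whose order here and below is hog1del minus HOG1-GFP, HOG1-CCAAX minus HOG1-GFP, and HOG1-CCAAX minus hog1del. Of all genes 0.937%, 0.276% and 0.276% passed, with 0.57%, 0.184% and 0.165% higher and 0.367%, 0.0919% and 0.11% lower. At an unadjusted p under 0.05 these counts were 1, 1 and 0, and MCM1 was the gene in both cases. STE12 stood at −0.64 ± 0.13 in HOG1-GFP, −0.66 ± 0.07 in hog1del and −0.67 ± 0.15 in HOG1-CCAAX (SD, n = 3 here and below). KAR4 stood at −1.23 ± 0.11, −1.19 ± 0.04 and −1.29 ± 0.17, and TEC1 at −1.60 ± 0.36, −1.60 ± 0.27 and −1.50 ± 0.14. The ranges of the 3 strains overlapped for each of these genes.

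**Figure D1:**
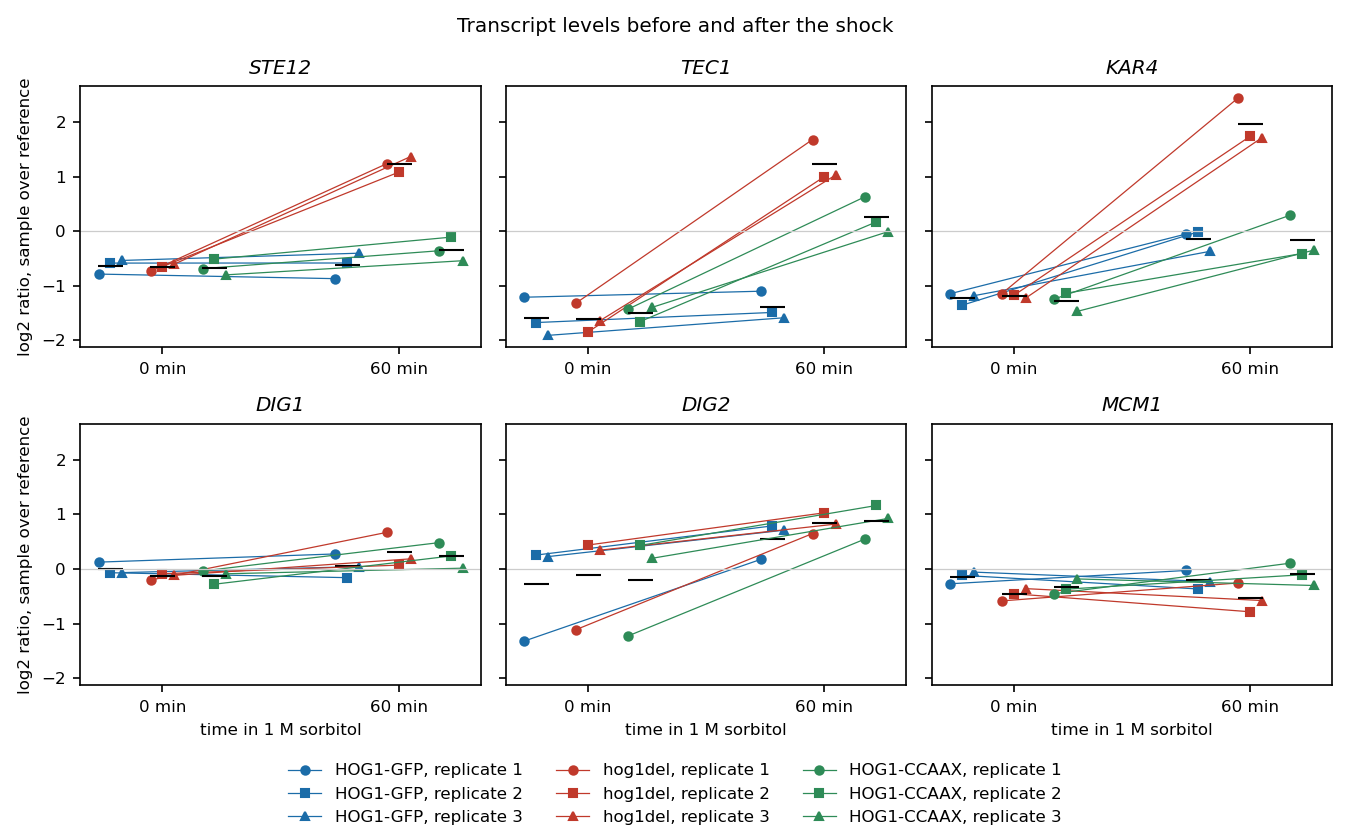
Levels of the 6 genes as log2 ratios of sample over reference (y axis) at 0 and 60 min of 1 M sorbitol (x axis). Lines join the 2 times within a strain and replicate, symbols mark the replicates and black dashes the means. STE12, TEC1 and KAR4 of hog1del rise from about the common starting level to means of 1.23, 1.24 and 1.96, and TEC1 also rises in HOG1-CCAAX.

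The 6 genes took separate courses over the 60 min. In HOG1-GFP KAR4 and DIG2 rose, 2 of 6, beside 46.8% of all genes called in either direction, 24% higher and 22.7% lower. In hog1del STE12, TEC1, KAR4, DIG1 and DIG2 rose, 5 of 6, beside 52.9% called, 25.6% higher and 27.4% lower. In HOG1-CCAAX 4 of 6 rose, STE12, TEC1, KAR4 and DIG2, beside 54.2% called, 28.1% higher and 26.1% lower. None of the 6 fell in any strain. The median response of the 6 genes was 0.13 in HOG1-GFP, 1.42 in hog1del and 0.73 in HOG1-CCAAX, while that of all 5443 genes was −0.01, −0.01 and 0.03.

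Differences of response between strains were rarer. Between hog1del and HOG1-GFP 2.57% of all genes differed (1.64% higher in hog1del, 0.937% lower), and STE12, TEC1 and KAR4 were among the higher. Between HOG1-CCAAX and HOG1-GFP 0.331% differed (0.129% higher in HOG1-CCAAX, 0.202% lower), and TEC1 was among the higher. Between HOG1-CCAAX and hog1del 0.129% differed (0.0367% higher in HOG1-CCAAX, 0.0919% lower), and STE12 and KAR4 were among the lower. With the biological replicate as a block these shares of all genes were 14.8%, 3.38% and 2.55%, and TEC1 joined the last group. All calls among the differences of response were lost without replicate 2 or without replicate 3, where at most 2 of all 5443 genes passed in any of the 3. In the fit without replicate 1 the counts among the 6 were 3, 1 and 3.

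**Figure D2:**
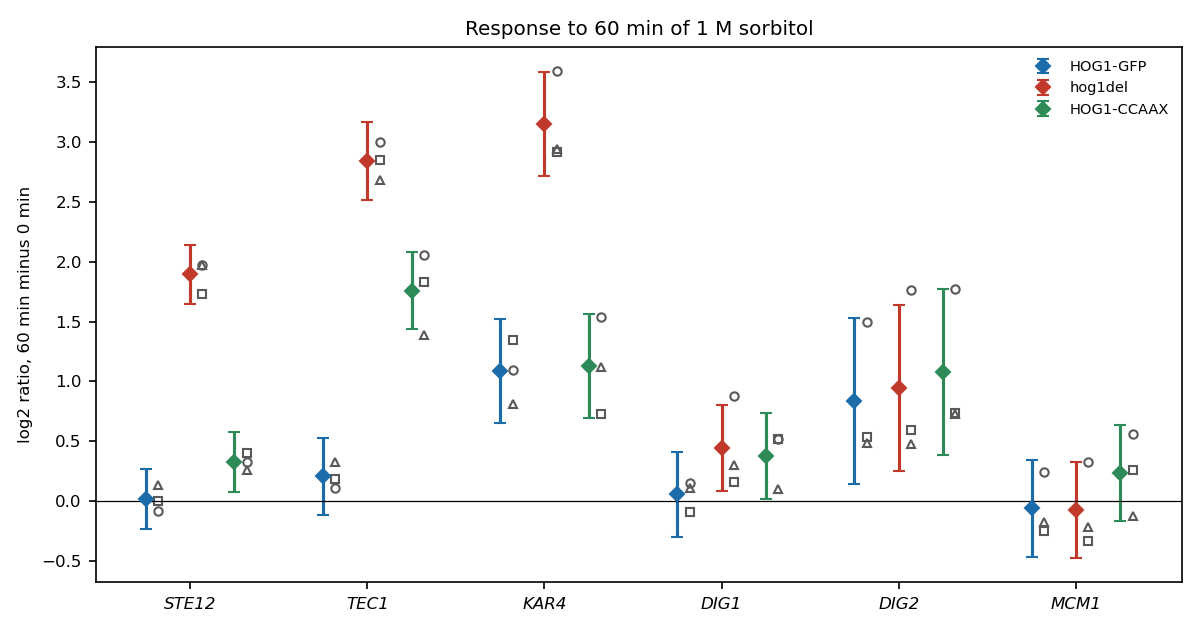
Response of the 6 genes to the shock, as change in log2 ratio from 0 to 60 min (y axis), in the 3 strains (colours). Diamonds with bars are limma means and 95% confidence intervals, and open symbols are replicates 1 (circle), 2 (square) and 3 (triangle). STE12 moves by 1.89 in hog1del and by 0.02 in HOG1-GFP, and DIG2 by 0.84 to 1.08 in all 3 strains.

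STE12 changed strongly in the deletion strain. Its log2 response in hog1del was 1.97, 1.73 and 1.97 in replicates 1, 2 and 3. In HOG1-GFP it was −0.08, 0.00 and 0.13, and in HOG1-CCAAX 0.33, 0.40 and 0.26. The replicate ranges of the 3 strains were thus all apart, with hog1del far above the others. In replicate 2 at 60 min the deposited STE12 levels of HOG1-GFP and HOG1-CCAAX were 0.25 and 0.22 above the means of their arrays. From array means the replicate 2 responses were −0.25 and 0.18. The deposited HOG1-CCAAX level there, −0.11, equalled 1 of its 2 arrays, and the other array read −0.56. STE12 rose 3.71-fold in hog1del (1.89 ± 0.14, limma adjusted p = 7.6e-06). Its change in HOG1-GFP did not pass (0.02 ± 0.11, adjusted p = 0.9124), with a 95% interval of −0.23 to 0.27. In HOG1-CCAAX it rose 1.26-fold (0.33 ± 0.07, adjusted p = 0.0310). That small rise was not called after quantile normalization (adjusted p = 0.2319), on means formed here from the technical arrays (0.1076), without replicate 2 (0.2617) or without replicate 3 (0.2001). With the first array of replicate 1 left out it came to 0.21 (adjusted p = 0.1733).

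The response of STE12 was larger in hog1del than in HOG1-GFP by 1.88 ± 0.17 (adjusted p = 9.2e-04) and smaller in HOG1-CCAAX than in hog1del by 1.56, that is −1.56 ± 0.20 (adjusted p = 0.0152). HOG1-CCAAX minus HOG1-GFP came to 0.31 ± 0.16 and missed the threshold (adjusted p = 0.7310), with an interval from −0.04 to 0.67. The levels at 60 min gave the same order. STE12 stood at 1.24, 1.08 and 1.37 in hog1del and at −0.36, −0.11 and −0.54 in HOG1-CCAAX. In HOG1-GFP it stood at −0.87, −0.58 and −0.40, which overlaps the HOG1-CCAAX range and all 3 ranges at 0 min. The difference at 60 min between hog1del and HOG1-GFP, 1.85 ± 0.23 (adjusted p = 2.8e-05), passed in every alternative fit, including those that left out 1 replicate.

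TEC1, the gene of the filamentation partner of Ste12, rose more than 2-fold both in hog1del and in HOG1-CCAAX and did not pass in HOG1-GFP. Its response in hog1del was 3.00, 2.85 and 2.68, and in HOG1-CCAAX 2.06, 1.83 and 1.39. In HOG1-GFP it was 0.11, 0.19 and 0.32. The 3 strains did not overlap, and HOG1-CCAAX lay between the others. The rise was 7.17-fold in hog1del (2.84 ± 0.16, limma adjusted p = 3.4e-06). In HOG1-CCAAX it was 3.38-fold (1.76 ± 0.34, limma adjusted p = 1.6e-05). Its change in HOG1-GFP, 0.21 ± 0.11, did not pass (adjusted p = 0.2583).

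The response of TEC1 in hog1del exceeded that in HOG1-GFP by 2.63 ± 0.27 (adjusted p = 7.4e-04), the highest mean of this difference among the 5443 genes. HOG1-CCAAX exceeded HOG1-GFP by 1.55 ± 0.45 (adjusted p = 0.0154), rank 10 of 5443, and that call was lost after quantile normalization (1.77, adjusted p = 0.1828). HOG1-CCAAX responded less than hog1del by −1.08 ± 0.18, in 3 of 3 replicates, with an adjusted p of 0.1177 that became 0.0099 with the replicate block and 0.0081 without replicate 1. The levels at 60 min separated all 3 strains. TEC1 stood at 1.68, 1.00 and 1.04 in hog1del, at 0.63, 0.17 and −0.01 in HOG1-CCAAX and at −1.10, −1.49 and −1.59 in HOG1-GFP. HOG1-CCAAX was higher than HOG1-GFP by 1.66 ± 0.07 (adjusted p = 3.8e-05) and lower than hog1del by −0.98 ± 0.13 (adjusted p = 9.6e-04, or 0.1321 with no replicate block). The former difference was called in every alternative fit.

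KAR4, whose product joins Ste12 at nuclear fusion genes, rose in all 3 strains. Its response was 1.10, 1.35 and 0.81 in HOG1-GFP and 1.54, 0.73 and 1.12 in HOG1-CCAAX. In hog1del it was 3.59, 2.92 and 2.94, where the level of replicate 1 at 60 min rests on 1 of 3 technical arrays, the others having no value. The ranges of HOG1-GFP and HOG1-CCAAX overlapped, and hog1del lay above both. KAR4 rose 2.12-fold in HOG1-GFP (1.09 ± 0.27, adjusted p = 0.0016), 8.87-fold in hog1del (adjusted p = 7.7e-06) and 2.19-fold in HOG1-CCAAX (1.13 ± 0.41, adjusted p = 0.0010). Each of these calls held in every alternative fit.

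The excess of hog1del over HOG1-GFP in the response of KAR4 was 2.06 ± 0.47 (adjusted p = 0.0052), rank 9 of 5443. HOG1-CCAAX minus hog1del came to −2.02 ± 0.19 (limma adjusted p = 0.0366), a call lost after quantile normalization (0.1282). Between HOG1-CCAAX and HOG1-GFP the difference was 0.04 ± 0.58 (adjusted p = 0.9983). Its sign differed between replicates, and a difference from −0.57 to 0.66 lies in the 95% interval. At 60 min KAR4 stood at 2.44, 1.74 and 1.71 in hog1del. It stood at −0.05, −0.01 and −0.37 in HOG1-GFP and at 0.29, −0.41 and −0.35 in HOG1-CCAAX. These latter groups overlapped each other and lay above all 3 groups at 0 min.

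The order of STE12, TEC1 and KAR4 was set side by side within replicates. In HOG1-CCAAX minus HOG1-GFP the response of TEC1 exceeded that of KAR4 by 1.50, 2.26 and 0.76 in replicates 1, 2 and 3, and that of STE12 by 1.53, 1.24 and 0.94. TEC1 was thus ahead of both in 3 of 3 replicates. In hog1del minus HOG1-GFP the lead of TEC1 was smaller, with means of 0.57 ± 0.46 over KAR4 and 0.76 ± 0.22 over STE12. That lead was also present in 3 of 3 replicates, at 0.39, 1.09 and 0.23 over KAR4 and 0.83, 0.93 and 0.52 over STE12. These gaps between genes are descriptions and were not tested.

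**Figure D3:**
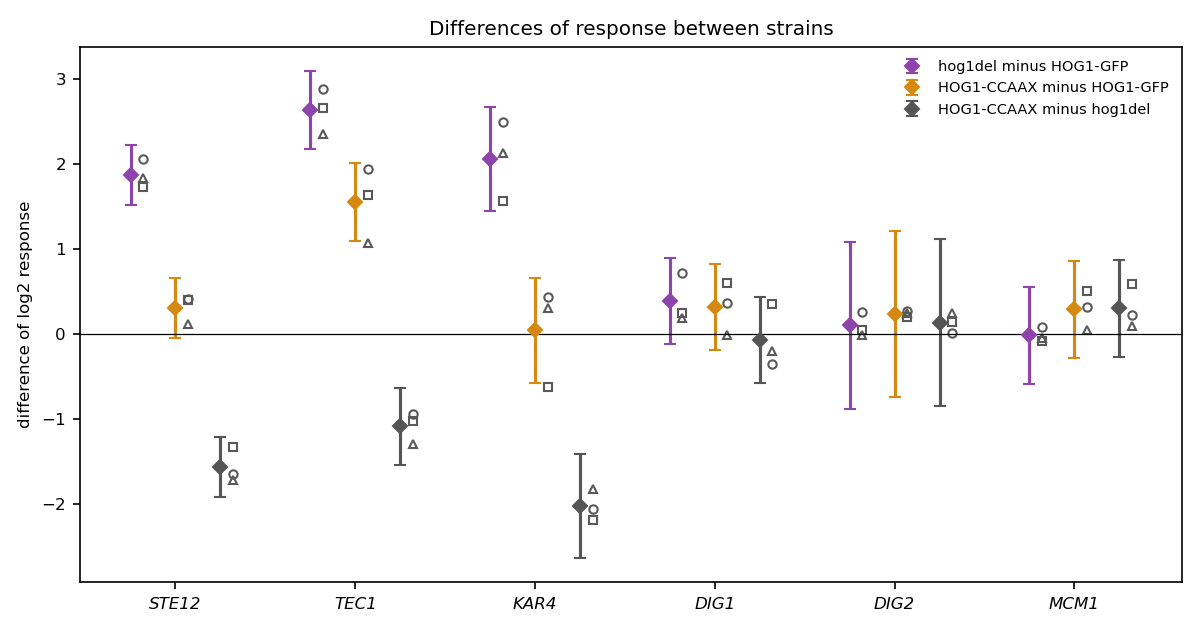
Differences between strains in the log2 response (y axis) of the 6 genes, with limma means and 95% confidence intervals as diamonds with bars. Open symbols are replicates 1 (circle), 2 (square) and 3 (triangle). The purple values of STE12, TEC1 and KAR4 lie at 1.88, 2.63 and 2.06, the orange value of TEC1 lies at 1.55, and all intervals of DIG1, DIG2 and MCM1 include 0.

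For the inhibitor genes DIG1 and DIG2 no difference of response between strains passed the test. The response of DIG1 was 0.87, 0.16 and 0.30 in hog1del, 0.52, 0.52 and 0.10 in HOG1-CCAAX and 0.15, −0.09 and 0.11 in HOG1-GFP. The range of HOG1-CCAAX overlapped both others, and those of HOG1-GFP and hog1del adjoined without overlap. DIG1 rose in hog1del by 0.44 ± 0.38 (adjusted p = 0.0398), but in replicates 2 and 3 alone the mean was 0.23 (adjusted p = 0.1227). The call was also lost without replicate 2 (0.1016), without replicate 3 (0.1607) and after quantile normalization (0.0663). In HOG1-CCAAX the change of 0.38 ± 0.24 missed the threshold (adjusted p = 0.0689). It passed with the replicate block (0.0191) and without replicate 1 (0.0471). In HOG1-GFP it was 0.06 ± 0.13 (adjusted p = 0.7891). The responses of hog1del and HOG1-GFP differed by 0.39 ± 0.29 (adjusted p = 0.4481, interval −0.12 to 0.89).

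DIG2 rose in all 3 strains. Its response was 1.50, 0.54 and 0.48 in HOG1-GFP, 1.76, 0.59 and 0.48 in hog1del and 1.77, 0.73 and 0.73 in HOG1-CCAAX. Replicate 1 was the high one in each strain. The means were 0.84 ± 0.57 (adjusted p = 0.0489), 0.94 ± 0.71 (adjusted p = 0.0278) and 1.08 ± 0.60 (adjusted p = 0.0154). At 0 min the level of DIG2 in replicate 1 lay between −1.32 and −1.11 in the 3 strains, against 0.20 to 0.44 in replicates 2 and 3. Without replicate 1 the responses were 0.51 (adjusted p = 0.0013), 0.54 (8.1e-04) and 0.73 (1.1e-04). Without replicate 2 or 3 none of the 3 rises passed (adjusted p from 0.0651 to 0.1397). The call in HOG1-GFP was also lost after quantile normalization (0.1123), median centring (0.0604) and with the robust prior (0.0503), and that in hog1del after quantile normalization (0.0577).

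For the DIG2 response hog1del minus HOG1-GFP was 0.11 ± 0.14 (adjusted p = 0.9398), with an interval of −0.87 to 1.08. HOG1-CCAAX minus HOG1-GFP was 0.24 ± 0.04 (adjusted p = 0.9939). The replicates of these differences lay much closer together than the limma interval, which takes its spread from the strains' own responses.

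MCM1 showed no response past the threshold. Its response was 0.24, −0.25 and −0.17 in HOG1-GFP, 0.33, −0.33 and −0.22 in hog1del and 0.56, 0.26 and −0.12 in HOG1-CCAAX. Replicate 1 was positive in each strain, and the other replicates were below 0 except for replicate 2 of HOG1-CCAAX. The means were −0.06 ± 0.27, −0.07 ± 0.35 and 0.23 ± 0.34 (adjusted p = 0.7992, 0.7486 and 0.2893). MCM1 stood lower in hog1del than in HOG1-GFP by −0.32 ± 0.02 at 0 min and by −0.33 ± 0.10 at 60 min, in 3 of 3 replicates each. Neither passed (adjusted p = 0.1427 and 0.0696).

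At 60 min the level comparisons with the replicate as a block called 3, 1 and 4 of the 6 genes. Among all genes 27.2% passed between hog1del and HOG1-GFP (13.9% higher, 13.3% lower), 11.4% between HOG1-CCAAX and HOG1-GFP (6.72% higher, 4.65% lower) and 11.2% between HOG1-CCAAX and hog1del (6.12% higher, 5.07% lower). STE12, TEC1 and KAR4 were higher in hog1del than in HOG1-GFP. TEC1 was higher in HOG1-CCAAX than in HOG1-GFP. In HOG1-CCAAX against hog1del STE12 (−1.57 ± 0.36, adjusted p = 4.0e-04), TEC1 and KAR4 (−2.12 ± 0.05, adjusted p = 3.3e-05) were lower and MCM1 was higher (0.44 ± 0.21, adjusted p = 0.0459). The MCM1 call was lost with no replicate block (0.3582), after quantile normalization (0.0641) and median centring (0.0612), without replicate 2 (0.4270) and without replicate 3 (0.2092).

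The pathway around these factors was described by lists chosen by known role. Their counts are read against all genes, of which 46.8% were called in HOG1-GFP, 52.9% in hog1del and 54.2% in HOG1-CCAAX. Without replicate 2 these shares were 21.8%, 24.5% and 26%, and without replicate 3 they were 19.8%, 21.9% and 26.5%, so counts of calls fell over all genes too. For differences of response between hog1del and HOG1-GFP the share of all genes was 2.57%, or 14.8% with the replicate block. Of 14 tested genes of the pheromone signalling cascade, limma called 9 higher and none lower in hog1del, 5 higher and 2 lower in HOG1-GFP, and 9 higher and 2 lower in HOG1-CCAAX. Their median response was 0.64, 0.19 and 0.49. Without replicate 3 the count in hog1del was 4, and without replicate 2 it was 7. STE4 (YOR212W), the G protein beta subunit, fell in HOG1-GFP by 1.08, was at 0.18 ± 0.34 in hog1del, and its response was 1.25 ± 0.19 higher in hog1del (adjusted p = 0.0136), 1 of 3 cascade genes that differed so (6 with the replicate block). FUS3 (YBL016W), the mating MAP kinase, rose by 0.89 ± 0.13 in hog1del (adjusted p = 3.4e-04) and differed from HOG1-GFP by 0.95 ± 0.05 (adjusted p = 0.0219). KSS1 (YGR040W), the kinase of filamentation, rose in hog1del by 0.85 ± 0.34 (adjusted p = 0.0015), yet its difference from HOG1-GFP, 0.54 ± 0.40, did not pass (adjusted p = 0.2537). GPA1 (YHR005C), the G protein alpha subunit, rose in hog1del by 1.80 ± 0.73 and in HOG1-CCAAX by 1.05 ± 0.61 (adjusted p = 8.4e-04 and 0.0132). Replicate 1 was the high one, with 2.64, 1.31 and 1.44 in hog1del and 1.75, 0.79 and 0.61 in HOG1-CCAAX. In HOG1-GFP GPA1 was at 0.20 ± 0.35 (limma adjusted p = 0.5880). Between HOG1-CCAAX and HOG1-GFP the response of 0 of the 14 cascade genes differed, beside 0.331% of all genes.

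Before the shock 4 of 15 tested mating genes known to be driven by Ste12 already stood higher in hog1del than in HOG1-GFP, beside 0.57% of all genes called higher, and 8 of 15 differed at an unadjusted p under 0.05. The 4 were AGA2 (0.55 ± 0.03), FIG1 (0.92 ± 0.50), PRM5 (1.00 ± 0.26) and PRM9 (0.55 ± 0.26), with the last 3 named after their values were seen. Over all genes 31 were called higher in this comparison, and 1 with no replicate block, so at most 1 of these 4 calls held there. Without replicate 1, 2 or 3 the calls higher over all genes were 39, 19 and 4. Over the shock, 12 of the 15 rose and none fell in hog1del, with a median of 1.28. In HOG1-GFP 4 rose and 2 fell, with a median of 0.22, and in HOG1-CCAAX 6 rose and 2 fell. The 12 in hog1del became 7 without replicate 2 or without replicate 3. Between hog1del and HOG1-GFP the response of 4 was higher and that of 1 lower, beside 1.64% and 0.937% of all genes. With the replicate block these were 11 and 2, where 14.8% of all genes differed. By level at 60 min 12 of the 15 were higher and 2 lower in hog1del than in HOG1-GFP. Of all genes 13.9% were higher and 13.3% lower there. AGA2 (YGL032C), an agglutinin subunit for cell adhesion in mating, fell in HOG1-GFP by 1.22 and rose in hog1del by 1.28 ± 0.40 (adjusted p = 3.8e-04), a difference of 2.50 ± 0.12 (adjusted p = 0.0014). PRM4 (YPL156C), a pheromone-regulated gene, rose by 2.04 ± 0.16 in hog1del and by 1.29 ± 0.20 in HOG1-CCAAX. PRM10 (YJL108C) went the other way. It rose in HOG1-GFP by 3.50 ± 1.04 and its response in hog1del was lower by −2.97 ± 0.88 (adjusted p = 0.0079). PRM8, named after its values were seen, also had a lower mean in hog1del (2.03 ± 0.54) than in HOG1-GFP (2.89 ± 0.27). So did PRM9, with −0.53 ± 0.75 in hog1del and −0.11 ± 1.00 in HOG1-GFP, and neither difference was called. The cell fusion gene FUS1 (YCL027W) was at 0.97, 4.92 and 4.34 in hog1del, so replicate 1 alone lay low. It was at 0.63, 1.61 and 2.08 in HOG1-GFP and at −0.17, 1.56 and 1.91 in HOG1-CCAAX. Neither of those changes passed (limma adjusted p = 0.1078 and 0.1975), and replicate 1 was the lowest in each strain.

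Of 4 tested genes known to need Kar4 with Ste12, all 4 rose in hog1del, 2 in HOG1-GFP and 3 in HOG1-CCAAX. Between hog1del and HOG1-GFP the response of 2 differed, or of 4 with the replicate block, beside 2.57% and 14.8% of all genes. PRM3 (YPL192C), needed for nuclear fusion, rose by 2.06 ± 0.05 in hog1del, 0.56 ± 0.35 in HOG1-GFP and 0.74 ± 0.21 in HOG1-CCAAX. CIK1 (YMR198W), a partner of the motor Kar3, rose by 0.86 ± 0.24 in hog1del (adjusted p = 5.0e-04), and HOG1-CCAAX showed a rise of 0.73 ± 0.14 (adjusted p = 0.0011). In HOG1-GFP it was at 0.04 ± 0.09 (adjusted p = 0.7971).

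Of 13 tested genes of filamentous growth, where Tec1 is known to act, 4 rose and 3 fell in hog1del, 2 rose and 2 fell in HOG1-CCAAX, and 2 rose and 2 fell in HOG1-GFP, with medians of 0.10, −0.17 and −0.13. In hog1del this share of called genes was close to that of all genes. FLO11 (YIR019C), the adhesin of filamentous growth, fell in hog1del by 0.67, that is −0.67 ± 0.39 (adjusted p = 0.0103), and was at −0.30 ± 0.17 in HOG1-GFP (adjusted p = 0.1863) and −0.09 ± 0.33 in HOG1-CCAAX (adjusted p = 0.6913). Its response in hog1del minus HOG1-GFP was −0.38 ± 0.33 (adjusted p = 0.5135). NFG1 (YLR042C) rose by 3.00 ± 0.70 in HOG1-GFP and by 1.09 ± 0.19 in hog1del, and was at 0.30 ± 0.12 in HOG1-CCAAX. Its response differed between HOG1-CCAAX and HOG1-GFP (−2.70 ± 0.80, adjusted p = 0.0078). In that comparison, where 0.331% of all genes passed, limma called 0 genes in each of the other 8 lists (1, 2, 1, 1, 7, 0, 0 and 0 at an unadjusted p under 0.05). MSS11 (YMR164C), an activator of FLO11, rose in all 3 strains, by 1.61 ± 0.14 in HOG1-GFP, 0.86 ± 0.35 in hog1del and 0.54 ± 0.10 in HOG1-CCAAX.

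**Figure D4:**
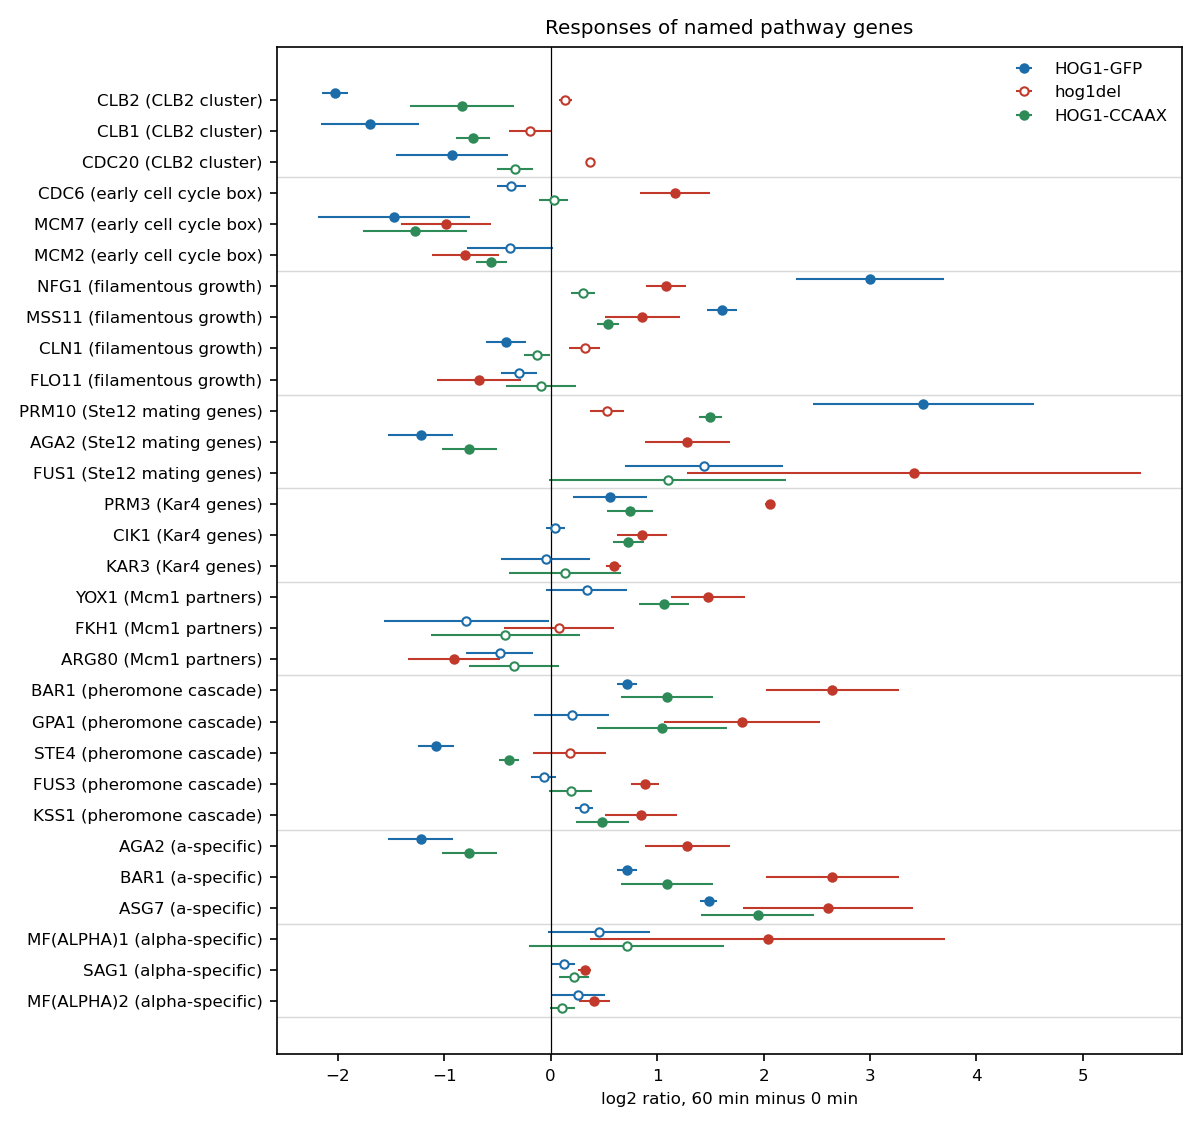
Mean log2 response to 60 min of 1 M sorbitol (x axis) of named genes of the 9 lists (y axis), in the 3 strains (colours). Bars are 1 SD over 3 replicates, filled points passed limma at an adjusted p under 0.05 and open points did not. AGA2 falls in HOG1-GFP and rises in hog1del, CLB2 falls in HOG1-GFP and not in hog1del, and NFG1 rises most in HOG1-GFP.

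Lists of cell cycle genes with known Mcm1 sites were counted beside MCM1. Of 10 tested CLB2 cluster genes, expressed around mitosis, 8 fell and 1 rose in HOG1-GFP, 1 fell and 2 rose in hog1del, and 5 fell and 2 rose in HOG1-CCAAX. Between hog1del and HOG1-GFP the response of 5 differed and all were higher in hog1del, beside 2.57% of all genes. With the replicate block 9 differed, beside 14.8% of all genes. The 8 that fell in HOG1-GFP became 5 without replicate 2 and 4 without replicate 3. The mitotic cyclin gene CLB2 (YPR119W) was at −2.03 ± 0.13 in HOG1-GFP and 0.14 ± 0.06 in hog1del, a difference of 2.16 ± 0.07 (adjusted p = 0.0022). The median response of the cluster was −1.14 in HOG1-GFP and −0.19 in hog1del. Of 8 tested early cell cycle box genes, CDC6 (YJL194W), a replication licensing factor, rose in hog1del by 1.17 ± 0.33 and was the only one to differ between hog1del and HOG1-GFP (1.54 ± 0.47, adjusted p = 0.0051). The median response of those 8 genes was −0.46 in HOG1-GFP and −0.44 in hog1del. The part of the cell cycle genes in the result for STE12, TEC1 and KAR4 was not tested. Of 7 tested partners of Mcm1, limma called the response of 0 different between hog1del and HOG1-GFP. That count was 1 at an unadjusted p under 0.05 and 2 with the replicate block. YOX1 (YML027W), a repressor that acts with Mcm1, rose in hog1del by 1.48 ± 0.35 and in HOG1-CCAAX by 1.06 ± 0.23.

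Genes specific to each mating type were counted as markers of the cells' type. Of 6 tested a-specific genes 3 rose and none fell in hog1del, while in HOG1-GFP and in HOG1-CCAAX 2 rose and 3 fell. The 3 were BAR1, ASG7 and AGA2, some of which also stand in the lists above, and MFA1, MFA2 and STE6 did not pass. Of 4 alpha-specific genes all 4 rose in hog1del and 1 in each other strain. For none of the 4 did limma call the response different between hog1del and HOG1-GFP (0 also at an unadjusted p under 0.05). The 4 that rose became 0 without replicate 2 or without replicate 3. Of the a-specific genes the response of 2 differed between these strains, or 5 with the replicate block, beside 2.57% and 14.8% of all genes. The level test at 60 min called 6 of the 6 a-specific and 2 of the 4 alpha-specific genes higher in hog1del than in HOG1-GFP. Of all genes 13.9% were so called. The median level of the a-specific genes lay between 0.85 and 0.92 in hog1del at 60 min and between −0.75 and −0.46 in HOG1-GFP at 60 min. For the alpha-specific genes these ranges were 0.27 to 0.63 and −0.28 to −0.02. MF(ALPHA)1 (YPL187W), a gene of the alpha pheromone, was at 0.11, 2.98 and 3.02 in hog1del. MF(ALPHA)2, a close copy, was at 0.26, 0.41 and 0.55 there. Whether either probe reads both genes was not tested. Ratios to a pool do not show whether a marker is absent, so the mating type was not established, and the part of these genes in the result was not tested.

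Likeness of pattern was measured by Pearson correlation over the 18 columns, each gene centred within its replicate. STE12 was most like CYB5 (YNL111C), which encodes cytochrome b5 (r = 0.95), YGR079W (0.95) and FUS3 (0.93). TEC1 was most like TUB4 (YLR212C), the gene of gamma-tubulin, PRM4 and RNR4 (YGR180C), a ribonucleotide reductase subunit, at 0.97 each. KAR4 was most like BAR1 (YIL015W), the alpha factor protease, ARR1 (YPR199C), a factor of arsenic resistance, and PFA5 (YDR459C), a palmitoyltransferase, at 0.96 each. These columns share 3 strains and 2 times, so the correlations are descriptions over 6 group means and their replicates.

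The other genes had other neighbours in pattern. DIG1 was most like WHI4 (YDL224C) at 0.93, YAP5 (YIR018W) at 0.92 and HCS1 (YKL017C) at 0.92. DIG2 was most like IPT1 (YDR072C) at 0.98, RAD33 (YML011C) at 0.97 and CHM7 (YJL049W) at 0.97. MCM1 reached 0.85 with YTA6 (YPL074W), 0.84 with THP3 (YPR045C) and 0.81 with YRO2 (YBR054W). Within the 6, r was 0.92 for STE12 and KAR4, 0.89 for TEC1 and KAR4, 0.87 for STE12 and TEC1, and 0.85 for DIG1 and DIG2. MCM1 lay between −0.40 and 0.33 with the others.

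None of the 6 genes overlaps another annotated gene in the RefSeq annotation R64. The 11 tested genes next to them were chosen after the values were seen. Of these 2 rose and 3 fell in hog1del, where 52.9% of all genes were called. The response of 1 differed between hog1del and HOG1-GFP, beside 2.57% of all genes. That gene is PEX34 (YCL056C), a peroxisome gene beside KAR4, which rose in hog1del by 0.71 ± 0.08 (adjusted p = 0.0023) and differed by 0.93 ± 0.23 (adjusted p = 0.0391). The neighbours of TEC1, UBC4 and MIS1, were at −0.03 ± 0.33 (not past the threshold) and −1.57 ± 0.27 (lower) in hog1del. Those of STE12, SAM35 and IPI1, were at −0.49 ± 0.15 (lower) and −0.97 ± 0.81 (not past the threshold). ARG80 (YMR042W), a MADS-box gene beside MCM1 that is known as its relative, fell in hog1del, at −0.91 ± 0.43 (adjusted p = 0.0053), and MCM1 was at −0.07 there.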

How the data were processed

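Total RNA came from the Ambion RiboPure-Yeast kit, per the labels' protocols, and was amplified to amino-allyl RNA and hybridized on arrays with 2 colours. The deposited level tables hold log2 ratios of reference over sample, in which the authors combined technical arrays (3 for each group of replicate 1, and 2 for each group of replicates 2 and 3). The authors' fold-change tables, also log2 values, equalled differences of the levels over time to within 5.0e-07. The deposited value table holds log2 ratios of sample over reference for each array, and means over its arrays correlated with the level tables, sign turned, at 0.997 or more across probes. Of 108 levels of the 6 genes, 105 lay within 0.05 of the mean of their arrays, and the largest gap was 0.25. In 3 of the 108 an array had no value, and 2 of these 3 had 1 array with a value. The STE12 level of HOG1-CCAAX in replicate 2 at 60 min equalled 1 of its 2 arrays, though both had a value. How channels were scaled, background treated or spots filtered is not given in the sources used here. A hog1del column whose name has a misplaced space was read as 60 min, as the deposited fold changes bear out. The lowest correlation between level columns was −0.46, and the direction was kept because the labels state both dyes.

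Signs were turned so that positive means more transcript in the sample. The 5443 open reading frames with values in all 18 columns were tested two-sided in R 4.3.3 with lmFit and eBayes of limma 3.58.1. A check on simulated data covered only the response of hog1del minus HOG1-GFP. Its noise was independent between columns, so it does not cover deviations shared by a replicate. Responses used the 9 fold changes formed within replicates with strain as the only term, and levels at each time used strain and biological replicate. P-values were adjusted after Benjamini and Hochberg over the 5443 genes, and an adjusted p under 0.05 passed. The number of arrays limits the precision. Gene symbols came from RefSeq (assembly R64), which matched 5804 of 6278 names.

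Deviations of equal replicate number correlated at 0.44 to 0.82 for responses, 0.74 to 0.91 at 0 min and 0.46 to 0.80 at 60 min. All lay above 0.1, so equal numbers were treated as pairs in the level fits and in the replicate block alternative for responses. The main fit of responses did not pair the strains by replicate number. The highest correlations of unequal number were 0.61, 0.81 and 0.68, each above the lowest of equal number. Alternatives were a replicate block or none, quantile normalization, median centring, genes with at least 2 replicates, a robust prior, means of the technical arrays, and leaving out each replicate. Leaving out the first array of replicate 1 was chosen after seeing the data. Members, lists and the choice of genes to name were made with earlier results of these data known. The rule names the 6 genes, HOG1, the 3 genes most like each, up to 3 genes per list with the largest difference of response between hog1del and HOG1-GFP, and FUS1, FLO11, FUS3, KSS1 and SST2 where measured. The list genes STE2, STE7, SST2, PRM1, PRM6, PRM2, HMS1, YHP1 and SWI4 lack a value in 1 or more columns and were not tested.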

Additional observations from a re-analysis of the deposited data

Results flagged for a closer look

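Responses that differ between strains, by the limma test of the difference itself, concern 3 of the 6 genes. For STE12 the response differed by 1.88 between hog1del and HOG1-GFP and by −1.56 between HOG1-CCAAX and hog1del. For TEC1 it differed by 2.63 between hog1del and HOG1-GFP and by 1.55 between HOG1-CCAAX and HOG1-GFP. For KAR4 it differed by 2.06 between hog1del and HOG1-GFP and by −2.02 between HOG1-CCAAX and hog1del. Groups of 3 samples are too small for the test for outlying samples.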

How the results depend on the processing

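At 0 min the counts of called genes among the 6 stayed at 0 in every alternative, those at 60 min against HOG1-GFP at 3 (hog1del) and 1 (HOG1-CCAAX), and the responses of STE12 and TEC1 in hog1del, of TEC1 in HOG1-CCAAX and of KAR4 in all 3 strains stayed past the threshold. The count in HOG1-GFP was 1 after quantile normalization, after median centring and with the robust prior. After quantile normalization the counts were 3 in hog1del, 0 for HOG1-CCAAX minus HOG1-GFP and 1 for HOG1-CCAAX minus hog1del. With no replicate block the count at 60 min for HOG1-CCAAX minus hog1del was 2. The replicate block added DIG1 in HOG1-CCAAX (adjusted p = 0.0191) and TEC1 in HOG1-CCAAX minus hog1del (0.0099) and changed no other call of the 6 genes. Leaving out 1 replicate gave 1 to 2 in HOG1-GFP, 3 to 4 in hog1del, 2 to 5 in HOG1-CCAAX, 0 to 3 for hog1del minus HOG1-GFP, 0 to 1 for HOG1-CCAAX minus HOG1-GFP, 0 to 3 for HOG1-CCAAX minus hog1del and 3 to 4 at 60 min for HOG1-CCAAX minus hog1del. The zeros came without replicate 2 or 3, with adjusted p of 0.1020 and 0.2071 for STE12, 0.1020 and 0.1004 for TEC1 and 0.1141 and 0.3402 for KAR4 in hog1del minus HOG1-GFP. Among all genes the 3 differences of response called 140, 18 and 7 genes, 804, 184 and 139 with the replicate block, 1158, 487 and 500 without replicate 1, and from 0 to 2 without replicate 2 or 3. With the first array of replicate 1 left out the second of these was 11, and HOG1-CCAAX minus HOG1-GFP at 0 min was 6 in place of 15. With no replicate block the level comparisons called 4, 0 and 2 genes at 0 min (51, 15 and 15 with it) and 436, 106 and 50 at 60 min (1480, 619 and 609 with it). A sign turned in 38 fits of 17 values, none past the threshold in either fit and none above 0.21 in size. The cause of these changes was not tested.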
